A study of Mus musculus with 8 samples.

Results

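Natural killer (NK) cells of unmodified mice were compared between lung and spleen. The libraries were taken by their titles, as the 2 lung and the 2 spleen libraries of the *Wt* genotype, which are 4 of the 8 libraries of the series. The series measured gene transcripts by RNA-seq in NK cells sorted from both organs, and it was made to find transcripts that change when the proximal enhancer of the chemokine gene *Ccl5* is missing. All mice were C57/Bl6, and the organs were described as mashed through a strainer and freed of red blood cells. For its tumor experiments the paper also describes digestion of lungs with collagenase and DNase, and it names no such step for spleen. It does not say whether the sequenced lung cells were digested, and the part of organ preparation in the differences below was not tested. NK cells were gated as CD45 positive, NK1.1 positive and TCRβ negative. The *Wt* mice carried no targeted change, and the other 4 libraries came from lung and spleen of mice homozygous for the enhancer deletion (*Ccl5* ΔPE/ΔPE), again with 2 libraries per organ. Sex and age were given for the study as a whole and not per library. Whether replicates 1 and 2 come from different animals is not given in the labels, and the p-values below therefore measure only the spread between these libraries, which may be technical.

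The number of reads assigned to genes was 8444054 and 3992951 in lung *Wt* replicates 1 and 2. In spleen *Wt* replicates 1 and 2 it was 3882458 and 8299635. A total of 18965 gene symbols had a read in at least 1 of these 4 libraries. Levels are given in CPM (counts scaled to a common number of reads on genes, with TMM factors), always with replicate 1 before replicate 2. Differences are log2 of lung over spleen with the standard error of the fit, so positive values are higher in lung. They come from a quasi-likelihood test in edgeR over 12595 genes, with p-values adjusted by the Benjamini-Hochberg method over all of them. A difference that moves by more than 1.5 times when the trend of each library with the GC content of genes is removed (the GC correction) has its corrected value in square brackets. Where an organ had no read of a gene, only a bound is given, taken against 3 reads over both libraries of that organ (0.252 CPM in lung and 0.239 CPM in spleen).

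NK cells are innate lymphocytes that kill infected or transformed cells with perforin and granzymes and that secrete cytokines and chemokines. In mice they mature from CD27-positive to CD11b-positive cells, leave the bone marrow under the control of sphingosine phosphate receptors, and circulate through blood, spleen and the vascular bed of the lung. Their activity is set by activating receptors such as NKG2D and by inhibitory receptors of the Ly49 and NKG2A families that read MHC class I, and their survival depends on IL-15.

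The genes that define NK cells were abundant in all 4 libraries. *Ncr1*, which encodes the activating receptor NKp46, was at 3165 and 3154 CPM in lung and 2801 and 2877 CPM in spleen. *Klrb1c*, which encodes NK1.1, the antigen of the gate, was at 4036 and 4045 CPM in lung and 3588 and 3612 CPM in spleen. *Eomes*, a T-box factor required for NK cell development, was at 201 and 195 CPM in lung and 199.6 and 203 CPM in spleen. The 2 organs overlapped for *Eomes* (log2 difference -0.02 ± 0.05 [0.20 with the GC correction]), while lung was slightly higher for *Ncr1* (0.15 ± 0.03 [0.08 with the GC correction]) and *Klrb1c* (0.17 ± 0.03). Scaling by library totals moved the median over all genes from -0.01 to -0.12, so the size of such small differences depends on the scaling. *Klrk1*, which encodes NKG2D, also overlapped, at 3217 and 3136 CPM in lung and 3082 and 3162 CPM in spleen (0.02 ± 0.03 [-0.24 with the GC correction]). Of the 19 NK identity genes tested, 8 were higher and 6 lower in lung at an adjusted p below 0.05, against 57% of all genes called in either direction, 27.7% higher and 29.3% lower. The median log2 difference of the list was 0.02, against -0.01 over all genes tested, and it turned to -0.08 when the libraries were scaled by their totals. It was 0.13 with the GC correction, 0.05 without lung *Wt* replicate 2, and 0.04 without spleen *Wt* replicate 2, with RLE scaling and with DESeq2. Within the list *Cd7*, a surface glycoprotein of lymphocytes, was at 593 and 594 CPM in lung and 1223 and 1184 CPM in spleen. *Il2rb*, the receptor chain shared by IL-2 and IL-15, was at 327 and 345 CPM in lung and 676 and 676 CPM in spleen. Both lung libraries lay below both spleen libraries for *Cd7* (-1.02 ± 0.04, adjusted p = 2.5e-23) and for *Il2rb* (-1.01 ± 0.04, adjusted p = 4.9e-22). *Tbx21*, which encodes T-bet, was at 216 and 221 CPM in lung and 341 and 331 CPM in spleen, a log2 difference of -0.62 ± 0.05 [-0.33 with the GC correction]. *Nkg7*, which encodes a membrane protein of cytotoxic granules, went the other way, with 13056 and 12811 CPM in lung and 9001 and 8674 CPM in spleen (0.55 ± 0.03). In bulk samples like these, fewer cells of a type and less RNA per cell cannot be told apart.

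Across all genes 7185 of 12595 differed between the organs at an adjusted p below 0.05, with 3495 higher and 3690 lower in lung. The share of called genes that were higher in lung was 48.6%, and it was 36.9% when libraries were scaled by their totals, which moved the median over all genes to -0.12. With a log2 difference of at least 1 as well, 906 genes (7.19%) were higher and 1100 (8.73%) were lower in lung. These counts rest on a narrow spread between libraries: the fit gave a common biological coefficient of variation of 2.50%, and the variance between the 2 libraries was 1.54 times counting error in lung (over 9822 genes) and 1.43 times in spleen (over 10039 genes). When that coefficient was set to 0.2 instead, 2011 genes were called, and 66 of the 144 genes followed across settings lost their call, among them *Gzma*, *Ccl5*, *Tbx21*, *Nkg7*, *Klrg1* and *S1pr5*. An exact permutation of 2 against 2 libraries cannot give a two-sided p below 0.333, so none is given.

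Transcripts of lung tissue were counted apart from NK genes. Of the 906 genes higher in lung, 72 were on lists of other cell types and 36 on lists of NK genes, with 2 on both kinds. Of all genes tested 1.32% were on lists of other cells and 3.18% on NK lists, against 7.95% and 3.97% of the genes higher in lung. A total of 167 of the 906 had no read in either spleen library, and 49 of these were other-cell genes and 116 were on no list. Such genes passed the count filter only through their reads in other libraries. Shares and counts of other-cell genes, here and below, are therefore shaped by the filter and are descriptions, not tests. Among the 1100 genes lower in lung, 35 were on lists of other cells and 50 on lists of NK genes, and 169 had no read in lung. The shares of the 2 kinds were 3.18% and 4.55% here. Genes with a mean of at least 5 CPM in both organs, a limit chosen after seeing the data, made up 162 of the 906 and 266 of the 1100. All genes of the lung epithelium list together summed to 407 and 387 CPM in the lung libraries and to 112 and 105 CPM in the spleen libraries. The sums for lung endothelium were 481 and 464 CPM in lung and 244 and 237 CPM in spleen. Both groups of transcripts are described further below with their members, and their part in the other results was not tested.

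The largest differences outside the other-cell lists included immediate early and chemokine genes on the lung side and cell-cycle genes on the spleen side. They were taken as the 12 largest in each direction among called genes without overlap between the organs and with a mean of at least 20 CPM in the higher organ. Immunoglobulin, hemoglobin, predicted and pseudogene symbols and clone names were left aside. *Dusp1* (chr17:26505590-26562128), which encodes a phosphatase that switches off MAP kinases, was at 283 and 306 CPM in lung and 26.7 and 21.7 CPM in spleen. *Rgs1* (chr1:144242296-144249242), which encodes a protein that shortens signals from chemokine receptors, was at 511 and 491 CPM in lung and 70.9 and 78.9 CPM in spleen. *Ccl4* (chr11:83662584-83664683), a chemokine of activated NK cells, was at 889.9 and 828 CPM in lung and 182 and 184 CPM in spleen. All 3 were far higher in both lung libraries than in either spleen library, with log2 differences of 3.64 ± 0.08 for *Dusp1* (adjusted p = 9.5e-32), 2.72 ± 0.05 for *Rgs1* (adjusted p = 6.3e-32) and 2.24 ± 0.05 for *Ccl4* (adjusted p = 9.5e-32). *Clec2d* (chr6:129180615-129186534), which encodes the Clr-b ligand of the inhibitory receptor NKR-P1B, was at 42.5 and 48.2 CPM in lung and 4.75 and 4.91 CPM in spleen, a difference of 3.19 ± 0.17. *Plk2* (chr13:110395046-110400844), a stress-induced kinase, was at 54.3 and 58.0 CPM in lung and 7.24 and 7.01 CPM in spleen, a difference of 2.97 ± 0.13. Neither gene had overlapping organs. *Cd36*, which encodes a fatty acid receptor found on endothelium, platelets and macrophages, was at 24.2 and 25.1 CPM in lung and 0.999 and 2.22 CPM in spleen (3.74 ± 0.22). *Adgrf5*, which encodes an adhesion receptor known from alveolar epithelium and endothelium and was on none of the lists, was at 24.4 and 19.7 CPM in lung and at 0 in both spleen libraries, at least 95.7-fold higher. As background, both genes are thus known from lung or vascular cells too. The other 5 of the 12 were *Fos*, *Tnfaip3*, *Nr4a2*, *Nr4a1* and *Ccl3*, which are described with their groups. All positions here and below are on GRCm38, from the GENCODE M21 annotation.

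On the spleen side, *Nusap1* (chr2:119618298-119651244), which encodes a spindle protein, had no read in either lung library and 28.5 and 25.0 CPM in the spleen libraries, so it was at least 104-fold lower in lung. *Slamf6* (chr1:171917515-171953170), a self-binding receptor of the SLAM family, was at 5.22 and 5.18 CPM in lung and 37.5 and 41.6 CPM in spleen. *H2afx*, which encodes the histone variant marked at DNA breaks, was at 9.32 and 10.1 CPM in lung and 67.7 and 57.4 CPM in spleen. Spleen was higher in every library pair for both, with log2 differences of -2.94 ± 0.16 for *Slamf6* (adjusted p = 1.7e-18) and -2.67 ± 0.13 for *H2afx* (adjusted p = 5.4e-20). *Adgrg5*, an adhesion receptor gene of leukocytes, was at 4.85 and 5.96 CPM in lung and 25.0 and 22.7 CPM in spleen (-2.17 ± 0.18). *Hvcn1*, which encodes a voltage-gated proton channel, was at 13.3 and 16.6 CPM in lung and 65.4 and 62.9 CPM in spleen (-2.15 ± 0.11). *Rom1*, which encodes a tetraspanin first described in photoreceptors, was at 4.48 and 5.96 CPM in lung and 23.2 and 22.1 CPM in spleen (-2.18 ± 0.18). The organs did not overlap in these 3 genes. The remaining 6 were the cell-cycle genes *Tpx2*, *Rrm2*, *Ccnb2*, *Birc5* and *Kif11* and the cytokine feedback gene *Socs1*.

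**Figure D1:**
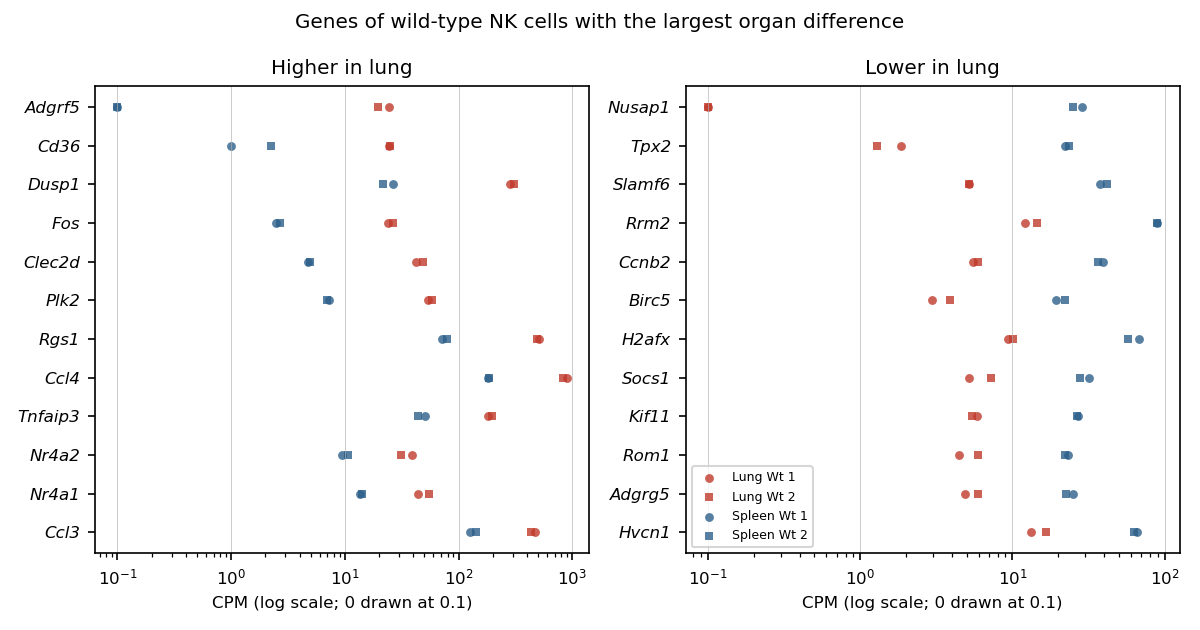
Levels (CPM, log scale) in each *Wt* library of the 12 genes with the largest differences in each direction, with lung in red, spleen in blue and 0 drawn at 0.1. The organs do not overlap in any of these genes, and among genes with reads the libraries of an organ lie furthest apart for *Cd36* in spleen.

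Immediate early genes, which are transcribed within minutes of a stimulus and include the AP-1 factors, were mostly higher in lung. Of 25 tested from a list of 27, 16 were higher and 6 lower, 11 and 1 of them by a log2 difference of at least 1. Among all genes 27.7% were higher and 29.3% lower, and 7.19% and 8.73% by at least 1. The median of the list was 0.65. *Fos* (chr12:85473890-85477273), a subunit of AP-1, was at 23.9 and 26.7 CPM in lung and 2.50 and 2.69 CPM in spleen. *Nr4a1* (chr15:101254269-101274795), an orphan nuclear receptor induced by antigen and activating receptors, was at 43.9 and 55.2 CPM in lung and 13.5 and 14.1 CPM in spleen. *Nr4a2*, its close relative, was at 38.5 and 31.3 CPM in lung and 9.49 and 10.7 CPM in spleen. Each of the 3 was higher in both lung libraries, by 3.23 ± 0.20 for *Fos* (adjusted p = 8.8e-17), 1.78 ± 0.13 for *Nr4a1* (adjusted p = 1.9e-14) and 1.80 ± 0.14 for *Nr4a2* (adjusted p = 8.4e-14). *Fosl2*, another AP-1 subunit, was at 76.6 and 77.7 CPM in lung and 27.5 and 25.0 CPM in spleen (1.58 ± 0.09). *Egr2*, a zinc finger factor, was at 21.1 and 20.5 CPM in lung and 8.49 and 9.23 CPM in spleen (1.22 ± 0.16). *Jun*, the main partner of FOS, was at 16.7 and 16.3 CPM in lung and 8.74 and 7.48 CPM in spleen (1.07 ± 0.17). The family was not uniform. *Junb*, an AP-1 subunit that restrains JUN, was at 40.7 and 46.6 CPM in lung and 70.2 and 63.0 CPM in spleen (-0.62 ± 0.09 [-0.28 with the GC correction]). *Jund*, the subunit of resting cells, was at 50.8 and 42.5 CPM in lung and 114 and 93.1 CPM in spleen (-1.07 ± 0.09 [-0.68 with the GC correction]), and its counts are less certain because another gene model lies antisense to it. *Myc*, a growth regulator on the same list, was at 37.5 and 46.1 CPM in lung and 68.4 and 72.4 CPM in spleen (-0.81 ± 0.09). Spleen was thus higher for *Junb*, *Jund* and *Myc*, with no overlap between the organs.

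The promoters of these genes were searched for TGACG, the core of the site that CREB and ATF factors bind, on both strands. Within the 250 bases before the start, 13 of the 22 list members tested that have a promoter in RefSeq held it (59.1%), against 28.7% of 8670 promoters of genes tested and 17.9% of all 27025 promoters of that length. The promoters of *Fos* (chr12:85473640-85473889, plus strand) and *Dusp1* (chr17:26508473-26508722, minus strand) are shown because these 2 genes had the largest differences of the list. They are from RefSeq, GRCm38.p6, and run from 5′ to 3′ on the strand of the gene, with TGACG or its complement CGTCA in capitals. In *Dusp1* 2 of the 3 matches overlap in a run that reads the same on both strands. A match is a description, not a site or a cause.
Fos: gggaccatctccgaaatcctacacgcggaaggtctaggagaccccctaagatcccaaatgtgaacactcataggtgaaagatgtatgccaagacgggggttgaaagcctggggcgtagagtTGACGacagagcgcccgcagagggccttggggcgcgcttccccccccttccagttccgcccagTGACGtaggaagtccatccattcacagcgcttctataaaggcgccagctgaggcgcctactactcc
Dusp1: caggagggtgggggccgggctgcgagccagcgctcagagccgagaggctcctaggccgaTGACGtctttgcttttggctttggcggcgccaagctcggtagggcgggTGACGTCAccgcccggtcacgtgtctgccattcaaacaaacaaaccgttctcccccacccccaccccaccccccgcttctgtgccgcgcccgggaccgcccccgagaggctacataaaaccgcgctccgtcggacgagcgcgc

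NF-κB feedback genes, many of which encode inhibitors of the pathway that induces them, split into a pair of strongly higher genes and a larger number of lower ones. Of 17 tested, 2 were higher and 8 lower in lung, against 27.7% and 29.3% of all genes. The median of the list was -0.21, or -0.10 without lung *Wt* replicate 1, -0.10 with a correction for GC content and -0.32 with scaling by library totals. *Tnfaip3* (chr10:19000910-19015657), which encodes the deubiquitinase A20, was at 183 and 195 CPM in lung and 50.7 and 44.4 CPM in spleen. *Nfkbiz*, which encodes a nuclear IκB protein, was at 33.9 and 34.5 CPM in lung and 13.7 and 10.98 CPM in spleen. These were the 2 higher genes, by 2.01 ± 0.07 (adjusted p = 3.5e-24) and 1.52 ± 0.13 (adjusted p = 1.8e-12), and neither had overlapping organs. *Rela*, which encodes the p65 subunit, was at 37.0 and 40.7 CPM in lung and 67.7 and 75.5 CPM in spleen. *Nfkbie*, which encodes IκBε, was at 14.0 and 14.2 CPM in lung and 26.5 and 22.8 CPM in spleen. Both were lower in lung, with differences of -0.92 ± 0.09 and -0.77 ± 0.14.

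Heat shock genes, which encode chaperones for misfolded proteins, were 8 higher and 3 lower of 13 tested, against 27.7% and 29.3% of all genes. Their median was 0.16, or 0.06 with scaling by library totals. The chaperone gene *Hsp90ab1* was at 1456 and 1477 CPM in lung and 979.9 and 957 CPM in spleen (0.60 ± 0.04). In the other direction *Dnajb1*, a cochaperone of HSP70 that is strongly heat-inducible, was at 186 and 194 CPM in lung and 283 and 281 CPM in spleen (-0.57 ± 0.05). *Hspa1a*, the inducible HSP70 gene, was near the limit of detection, at 0.373 and 0.777 CPM in lung and 0 in spleen, at least 2.11-fold higher. Genes induced by glucocorticoids were 4 higher and 8 lower of 15 tested, with a median of -0.36. *Dusp1* and *Cxcr4*, which are described with other groups, belong to the list and had its largest differences toward lung. *Tsc22d3*, which encodes the leucine zipper protein GILZ, was at 616 and 645 CPM in lung and 599 and 606 CPM in spleen. Its difference of 0.06 ± 0.04 [0.12 with the GC correction] did not pass the test (adjusted p = 0.21). *Fkbp5*, a cochaperone of the glucocorticoid receptor, was at 116 and 139 CPM in lung and 194 and 204 CPM in spleen (-0.68 ± 0.06). *Ddit4*, an inhibitor of mTORC1, was at 38.7 and 41.4 CPM in lung and 95.7 and 83.3 CPM in spleen (-1.15 ± 0.09). *Zbtb16*, which encodes the factor PLZF, was higher in lung, at 10.9 and 11.7 CPM against 6.49 and 5.14 CPM in spleen (0.999 ± 0.21). Clock genes were 4 higher and 3 lower of 16 tested, no larger shares than the 27.7% and 29.3% of all genes. *Clock*, the activator partner of BMAL1, was at 32.4 and 27.7 CPM in lung and 13.2 and 19.6 CPM in spleen (0.82 ± 0.13). *Arntl*, which encodes BMAL1 itself, was at 25.7 and 27.7 CPM in lung and 35.7 and 36.3 CPM in spleen (-0.45 ± 0.11). *Nr1d1*, the repressor REV-ERBα, had no read in lung and 1.998 and 2.10 CPM in spleen, at least 8.21-fold lower. The median of the clock list was -0.07, and it was 0.02 in a fit of the *Wt* libraries alone and without lung *Wt* replicate 2, 0.04 without spleen *Wt* replicate 2 and over genes with at least 10 counts in every *Wt* library, -0.01 with the GC correction and -0.18 with library totals.

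The chemokine genes *Ccl4* and *Ccl3* were among the 12 largest differences toward lung by the rule above. *Ccl5* and *Xcl1* (0.22 ± 0.08) differed less, and the call of *Xcl1* was lost in several settings given below. Of 11 cytokine and chemokine genes tested, 7 were higher and 1 was lower in lung, against 27.7% and 29.3% of all genes. The median of the list was 0.23, or 0.40 with the GC correction and 0.12 with scaling by library totals. *Ccl3* (chr11:83647844-83649355), a chemokine made together with *Ccl4* by activated NK cells, was at 469 and 434 CPM in lung and 126 and 143 CPM in spleen. *Ccl9*, another chemokine of the same family, was at 34.9 and 36.5 CPM in lung and 14.5 and 13.9 CPM in spleen. *Ccl5* (chr11:83525778-83530518), whose enhancer is deleted in the other genotype, was at 19518 and 18349.6 CPM in lung and 16679 and 15664 CPM in spleen. Lung was higher in all 3, by 1.73 ± 0.05 for *Ccl3*, 1.33 ± 0.12 for *Ccl9* and 0.23 ± 0.04 [0.37 with the GC correction] for *Ccl5* (adjusted p = 6.1e-06), where scaling by library totals gave 0.12. In the deletion libraries *Ccl5* was at 2992 and 3195 CPM in lung and 2676 and 2432 CPM in spleen, below every *Wt* library. *Ifng*, which encodes interferon-γ, was at 92.7 and 94.3 CPM in lung and 83.4 and 78.8 CPM in spleen (0.21 ± 0.07 [0.14 with the GC correction], adjusted p = 0.0068). *Ltb*, which encodes lymphotoxin-β, was the lower gene, at 65.6 and 68.9 CPM in lung and 292 and 253 CPM in spleen (-2.01 ± 0.07, adjusted p = 5.1e-25). *Tnf*, named after its values were seen, was below the filter, with no read in lung and 0.999 and 2.45 CPM in spleen, at least 7.90-fold lower.

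Genes of chemokine receptors and of the Gi signals behind them were 7 higher and 8 lower of 17 tested, against 27.7% and 29.3% of all genes. Of the 17, 5 were higher and 2 lower by at least 1, against 7.19% and 8.73% of all genes. The median was -0.03, or -0.18 with the GC correction, -0.13 with scaling by library totals, 0.0017 without lung *Wt* replicate 1 and -0.098 without spleen *Wt* replicate 1. Some other settings moved it toward 0, among them DESeq2 to -0.0035 and RLE scaling to -0.0094. Higher genes of this group were mostly RGS genes, whose proteins speed the return of G proteins to rest. *Rgs2* was at 145 and 145 CPM in lung and 55.2 and 51.2 CPM in spleen. *Rgs18*, which is also a platelet gene, was at 77.5 and 72.8 CPM in lung and 21.0 and 21.97 CPM in spleen. *Rgs16* was at 6.84 and 5.44 CPM in lung and 0.999 and 2.45 CPM in spleen. With *Rgs1*, these made 4 RGS genes without overlap between the organs, by 1.47 ± 0.07 for *Rgs2*, 1.81 ± 0.10 for *Rgs18* and 1.68 ± 0.32 for *Rgs16*, which was 2.65 without spleen *Wt* replicate 2. Among receptors, *Cxcr4*, which holds cells in the bone marrow through CXCL12, was at 14.0 and 11.4 CPM in lung and 5.50 and 5.61 CPM in spleen (1.23 ± 0.20). *Cx3cr1*, the fractalkine receptor of mature NK cells, was at 116 and 119 CPM in lung and 84.2 and 81.7 CPM in spleen (0.50 ± 0.06). *Cxcr3*, which guides NK cells to interferon-induced chemokines, was lower, at 62.5 and 70.5 CPM in lung and 177 and 159.96 CPM in spleen (-1.35 ± 0.07). *Ccr7*, the lymph node homing receptor, was at 0.497 and 0.259 CPM in lung and 6.99 and 7.83 CPM in spleen (-4.12 ± 0.43).

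Granule genes were split, with the main granzymes and perforin higher in lung. *Gzma* (chr13:113093825-113100981), which encodes granzyme A, was at 25399 and 24265 CPM in lung and 15694 and 15278 CPM in spleen. *Gzmb*, which encodes granzyme B, a protease that starts apoptosis in target cells, was at 2749 and 2807 CPM in lung and 1422 and 1413 CPM in spleen. *Prf1*, which encodes the pore-forming protein perforin, was at 1463 and 1556 CPM in lung and 1303 and 1319.98 CPM in spleen. Each was higher in both lung libraries, by 0.68 ± 0.04 for *Gzma*, 0.97 ± 0.03 for *Gzmb* (adjusted p = 3.2e-24) and 0.20 ± 0.04 [0.38 with the GC correction] for *Prf1*. *Serpinb9*, an inhibitor that protects the killer cell from its own granzyme B, was at 1459 and 1409.99 CPM in lung and 871 and 901 CPM in spleen (0.69 ± 0.04). *Gzmk*, a granzyme of less mature NK cells, was lower, at 6.71 and 5.70 CPM in lung and 19.2 and 18.3 CPM in spleen (-1.55 ± 0.17). *Gzmm*, a further granzyme, was at 19.6 and 21.5 CPM in lung and 35.2 and 33.9 CPM in spleen (-0.76 ± 0.12). *Lamp1*, a membrane protein of lysosomes and granules, was at 146 and 139 CPM in lung and 212 and 204 CPM in spleen (-0.53 ± 0.06). In all, 6 of 16 granule genes were higher and 5 lower, shares close to those of all genes. Their median of 0.07 turned to -0.04 when libraries were scaled by their totals, and it was 0.13 with the GC correction and 0.12 without lung *Wt* replicate 1. Per kilobase of transcript (RPKM), the lung level of *Gzma* was 24684 and that of *Gzmb* was 1935, against 15394 and 987 in spleen.

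Most genes of the late maturation list were higher in lung and most of the early list were lower. Of 17 late genes, 11 were higher and 3 lower in lung, against 27.7% and 29.3% of all genes. The median of the late list was 0.34. *Irf8*, a transcription factor of NK and myeloid cells, was at 854 and 872 CPM in lung and 358 and 362 CPM in spleen. *Prdm1*, which encodes BLIMP1, was at 31.6 and 33.7 CPM in lung and 15.7 and 15.5 CPM in spleen. *Cma1*, a chymase gene transcribed in mature NK cells, was at 1786 and 1773 CPM in lung and 893 and 869 CPM in spleen. These were the 3 late genes that differed by at least 1, without overlap of the organs and with differences of 1.26 ± 0.04 for *Irf8*, 1.05 ± 0.12 for *Prdm1* and 1.02 ± 0.04 for *Cma1*. Among all genes 7.19% were higher by at least 1. *Klrg1*, an inhibitory receptor of the last maturation stage, was at 1028 and 985 CPM in lung and 693 and 687 CPM in spleen (0.55 ± 0.04). *Zeb2*, which works with T-bet in terminal maturation, was at 346 and 325 CPM in lung and 217 and 229 CPM in spleen (0.59 ± 0.05). *Itgam*, which encodes the CD11b chain, was at 389 and 381 CPM in lung and 307 and 308 CPM in spleen (0.33 ± 0.04). The 3 lower genes of the list, named here after their values were seen, were *Tbx21*, the integrin chain *Itgb2* and *S1pr5*.

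Of 18 early genes, 1 was higher and 13 were lower in lung, against 27.7% and 29.3% of all genes. Of the 13, 9 were lower by at least 1, as were 8.73% of all genes, and the median of the list was -0.998. Transcripts of T cells (10 of 18 tested) and B cells (22 of 25 tested), described below, were lower in lung too. Their part in this list was not tested. *Cd27*, which encodes the costimulatory receptor used to stage NK cells, was at 88.6 and 92.0 CPM in lung and 188 and 176 CPM in spleen. *Tcf7*, which encodes the factor TCF1, was at 63.3 and 67.6 CPM in lung and 166 and 161 CPM in spleen. *Emb*, which encodes the adhesion protein embigin, was at 85.2 and 82.1 CPM in lung and 259.5 and 260.1 CPM in spleen. Both lung libraries were lower in each, with differences of -1.01 ± 0.06 for *Cd27*, -1.33 ± 0.06 for *Tcf7* and -1.63 ± 0.06 for *Emb*. *Kit*, the stem cell factor receptor, was at 19.3 and 18.7 CPM in lung and 57.0 and 56.7 CPM in spleen (-1.57 ± 0.11). *Il7r*, the IL-7 receptor chain of early NK cells and ILCs, was at 44.3 and 44.8 CPM in lung and 90.2 and 94.9 CPM in spleen (-1.07 ± 0.08). None of these 5 genes had overlapping organs. *Gata3*, a factor of early NK cells and ILC2, was near equal, at 361 and 363 CPM in lung and 407 and 401 CPM in spleen (-0.16 ± 0.04 [-0.02 with the GC correction], or -0.26 with library totals), and lost its call with a correction for GC content.

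**Figure D2:**
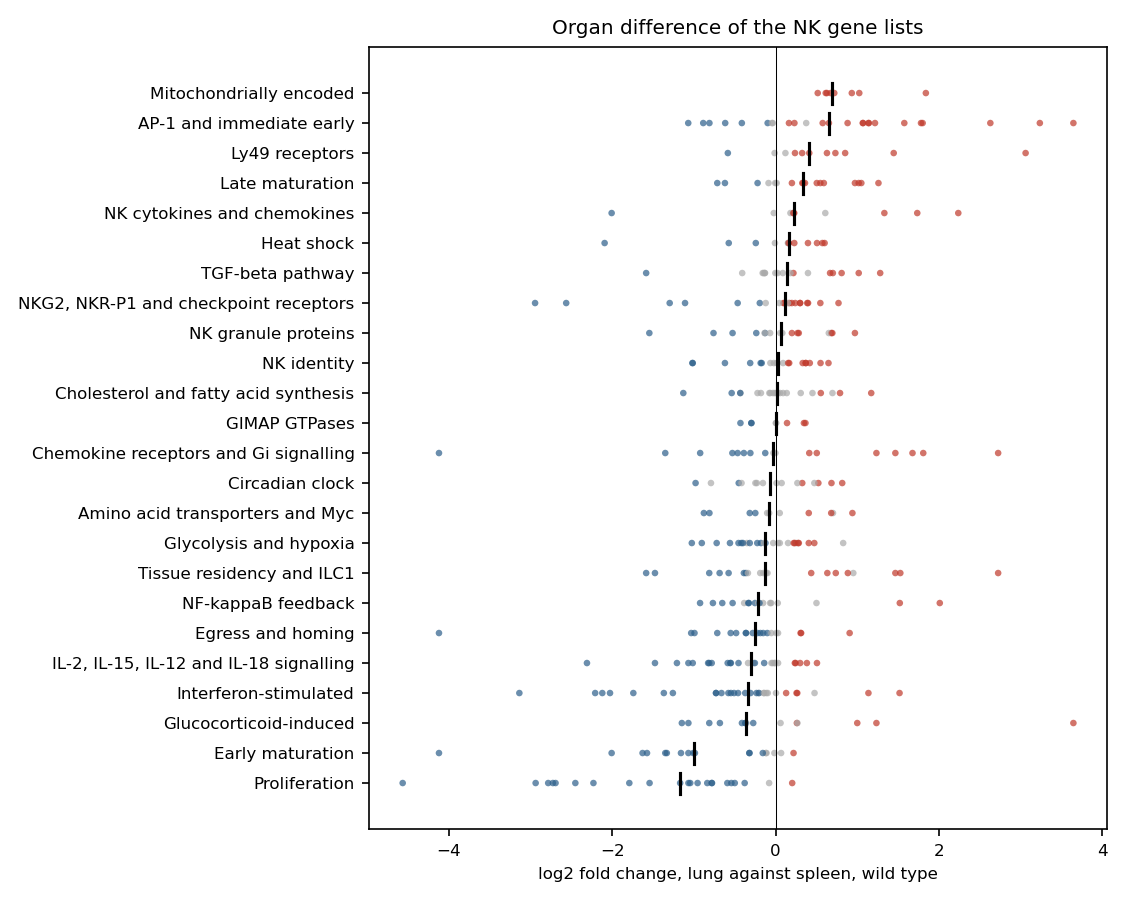
Log2 differences of lung over spleen (x axis) for the tested members of each NK gene list, 1 row per list, with members higher in lung in red, lower in blue and not called in grey, and the median over all tested members as a black bar. Members with 3 reads or fewer in an organ are not drawn, and the lists for proliferation and early maturation lie furthest to the left and those for mitochondrially encoded and immediate early genes furthest to the right.

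Tissue residency and ILC1 genes went both ways, with 7 higher and 7 lower of 20 tested, against 27.7% and 29.3% of all genes. Their median of -0.13 turned to 0.15 without spleen *Wt* replicate 2, and was -0.21 without spleen *Wt* replicate 1 and -0.24 with library totals. *Rgs1* and *Rgs2*, described above, belong to the list and were among its 3 largest differences on the lung side. *Itgae*, which encodes the CD103 chain that binds E-cadherin, was at 7.09 and 5.70 CPM in lung and 3.25 and 3.74 CPM in spleen (0.88 ± 0.26, adjusted p = 0.0039), and its call was lost with DESeq2, without lung *Wt* replicate 1 and with the coefficient of variation set to 0.2. *Cd69*, whose protein holds lymphocytes in tissue by blocking S1PR1, was at 146 and 142 CPM in lung and 99.7 and 111 CPM in spleen (0.44 ± 0.06 [0.17 with the GC correction]). *Litaf*, which encodes an endosomal protein, was at 51.1 and 52.1 CPM in lung and 18.7 and 17.4 CPM in spleen (1.53 ± 0.11). *Itga1*, which encodes the CD49a chain of ILC1 and resident NK cells, was at 7.83 and 8.55 CPM in lung and 9.24 and 8.53 CPM in spleen. *Itga1* overlapped between the organs (-0.12 ± 0.21 [-0.22 with the GC correction], adjusted p = 0.65), while *Cd69* and *Litaf* did not. *Cxcr6*, the receptor of liver ILC1, was at 33.7 and 30.6 CPM in lung and 41.5 and 43.3 CPM in spleen (-0.39 ± 0.10). *Cish*, a feedback inhibitor of IL-15 signals, was at 3.11 and 1.81 CPM in lung and 7.49 and 7.48 CPM in spleen (-1.48 ± 0.28). *Ldlrad4*, which encodes an inhibitor of TGF-β signals, was at 2.11 and 2.85 CPM in lung and 7.49 and 6.89 CPM in spleen (-1.58 ± 0.28). Lung was lower in each of these 3. HOBIT was listed by the symbol *Znf683*, which the count tables do not use. Its mouse symbol *Zfp683*, looked up after seeing the data, had 0 reads in both lung libraries and 2 and 5 reads in those of spleen, too few to be tested.

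Egress and homing genes were mostly lower in lung, with 14 lower and 3 higher of 20 tested, against 29.3% and 27.7% of all genes. Their median was -0.25, or -0.12 with a correction for GC content. *Klf2*, the factor that drives *S1pr1* in T cells, was at 239 and 230.03 CPM in lung and 489 and 453 CPM in spleen. *S1pr5*, the receptor by which NK cells leave bone marrow and lymph nodes, was at 128 and 132 CPM in lung and 217 and 209 CPM in spleen. *S1pr4*, a related receptor, was at 39.3 and 39.6 CPM in lung and 82.2 and 79.8 CPM in spleen. All were lower in both lung libraries, with differences of -0.99 ± 0.05 for *Klf2* (adjusted p = 2.5e-20), -0.71 ± 0.05 [-0.47 with the GC correction] for *S1pr5* and -1.03 ± 0.08 for *S1pr4*. *Selplg*, which encodes the selectin ligand PSGL-1, was at 1329.5 and 1453 CPM in lung and 2105 and 1963 CPM in spleen (-0.55 ± 0.04). *S1pr1* itself overlapped, at 77.1 and 79.5 CPM in lung and 84.7 and 78.6 CPM in spleen (-0.05 ± 0.07 [-0.02 with the GC correction]). *Klf6*, a relative of *Klf2* that belongs to the early response genes of many cells, was higher, at 914 and 943 CPM in lung and 503 and 489 CPM in spleen (0.91 ± 0.04).

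Ly49 receptors, lectin-like proteins that bind MHC class I, were 8 higher and 1 lower of 11 tested, against 27.7% and 29.3% of all genes. Their median was 0.41, or 0.21 with a correction for GC content. The genes are near copies of each other, so how 50-base reads were shared among them is uncertain. *Klra9*, which encodes Ly49I, was at 1629.99 and 1599 CPM in lung and 972 and 974 CPM in spleen. *Klra3*, which encodes Ly49C, was at 367 and 340.4 CPM in lung and 231 and 230.2 CPM in spleen. *Klra8*, which encodes the activating receptor Ly49H, was at 761 and 708 CPM in lung and 538 and 567 CPM in spleen. Lung was higher in both libraries for all 3, by 0.73 ± 0.04 for *Klra9*, 0.63 ± 0.05 [0.38 with the GC correction] for *Klra3* and 0.41 ± 0.05 [0.21 with the GC correction] for *Klra8*. *Klra10* was at 36.8 and 33.9 CPM in lung and 13.2 and 13.1 CPM in spleen (1.45 ± 0.22). The pseudogene *Klra13-ps*, the most abundant of the list in lung, was at 1788 and 1746 CPM there and 959 and 997 CPM in spleen (0.85 ± 0.04). *Klra6*, which encodes Ly49F, was the lower member, at 38.7 and 37.3 CPM in lung and 61.4 and 55.0 CPM in spleen (-0.58 ± 0.09). NKG2, NKR-P1 and checkpoint receptors were 11 higher and 6 lower of 21 tested, and their median of 0.11 turned to -0.01 with a correction for GC content and was 0.0046 with library totals. *Klrb1b*, the inhibitory receptor NKR-P1B that binds the product of *Clec2d*, was at 323 and 316 CPM in lung and 183 and 191 CPM in spleen (0.77 ± 0.05). *Klrc1*, which encodes the inhibitory receptor NKG2A, was at 1098 and 1062 CPM in lung and 784 and 851 CPM in spleen (0.40 ± 0.04 [0.21 with the GC correction]). *Cd160*, a receptor for HVEM and MHC class I, was lower, at 75.0 and 76.9 CPM in lung and 165 and 162 CPM in spleen (-1.11 ± 0.06). *Cd96*, which shares its ligand with CD226, was at 202 and 208 CPM in lung and 276 and 285 CPM in spleen (-0.46 ± 0.05). Higher members of the NKG2, NKR-P1 and checkpoint list thus differed by less than 1 on the log2 scale, and the 4 that differed by more were all lower in lung. Among all genes 8.73% were lower by at least 1.

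Genes of IL-2, IL-15, IL-12 and IL-18 signalling were 5 higher and 14 lower of 26 tested, with a median of -0.30. *Socs1* (chr16:10782240-10785536), which encodes an inhibitor of JAK kinases induced by the cytokines it restrains, was at 5.22 and 7.25 CPM in lung and 32.0 and 27.8 CPM in spleen. *Ifnar1*, a chain of the type I interferon receptor, was at 66.8 and 70.5 CPM in lung and 123 and 118 CPM in spleen. *Jak3*, the kinase of the common γ chain, was at 7.09 and 4.92 CPM in lung and 10.7 and 11.6 CPM in spleen. As with *Il2rb*, *Il7r* and *Cish*, the spleen libraries were higher, and the differences were -2.31 ± 0.17 for *Socs1* (adjusted p = 2.2e-14), -0.81 ± 0.07 for *Ifnar1* and -0.83 ± 0.22 [-0.52 with the GC correction] for *Jak3*. *Il18r1*, the IL-18 receptor chain, overlapped, at 107 and 113 CPM in lung and 106 and 113 CPM in spleen. *Il12rb2*, the inducible IL-12 receptor chain, was at 309 and 294 CPM in lung and 252 and 261 CPM in spleen (0.24 ± 0.05). Genes of the TGF-β pathway were 6 higher and 1 lower of 18 tested, where 27.7% of all genes were higher and 29.3% lower, so the share higher was near that of all genes. Their median was 0.13, and it was 0.08 with genes without a read in an organ held at their bound. For every other NK list the 2 medians were equal to 2 decimals. The TGF-β median was also 0.03 with scaling by library totals, 0.33 with the GC correction, 0.07 without lung *Wt* replicate 2 and 0.09 over genes with at least 10 counts in every *Wt* library. *Smurf2*, a ubiquitin ligase that limits the pathway, was at 42.1 and 39.4 CPM in lung and 21.7 and 19.6 CPM in spleen (1.02 ± 0.11). *Smad4*, the shared mediator, was at 50.4 and 46.6 CPM in lung and 29.98 and 30.3 CPM in spleen (0.70 ± 0.10). *Skil*, which encodes a SMAD corepressor, was at 187 and 187 CPM in lung and 113 and 121 CPM in spleen (0.67 ± 0.06). These 3 were higher in both lung libraries. The receptor gene *Tgfbr2*, at 55.4 and 56.7 CPM in lung and 58.5 and 64.5 CPM in spleen, did not pass the test (adjusted p = 0.087).

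Interferon-stimulated genes were 18 lower and 5 higher of 30 tested, against 29.3% and 27.7% of all genes. Their median was -0.34, or -0.22 over genes with at least 10 counts in every *Wt* library. *Irf7*, the factor that amplifies type I interferon, was at 18.8 and 23.1 CPM in lung and 50.5 and 53.2 CPM in spleen. *Ifit1*, which encodes a sensor of foreign RNA caps, was at 7.46 and 10.1 CPM in lung and 26.5 and 28.6 CPM in spleen. *Ifit3*, its partner, was at 5.10 and 2.85 CPM in lung and 18.2 and 19.4 CPM in spleen. The lung libraries were lower throughout, with differences of -1.37 ± 0.11 for *Irf7*, -1.74 ± 0.15 for *Ifit1* and -2.12 ± 0.20 for *Ifit3*. *Oas3*, which encodes an oligoadenylate synthetase, was at 0.746 and 0.518 CPM in lung and 4.996 and 6.54 CPM in spleen (-3.14 ± 0.40). *Oasl2*, a relative of it, was at 2.11 and 1.30 CPM in lung and 7.49 and 7.59 CPM in spleen (-2.03 ± 0.30). *Isg15*, a ubiquitin-like protein gene, was at 9.70 and 9.33 CPM in lung and 14.5 and 12.5 CPM in spleen (-0.46 ± 0.17, adjusted p = 0.021). An exception was *Ly6a*, which encodes Sca-1, at 11.7 and 9.58 CPM in lung and 3.75 and 3.86 CPM in spleen (1.52 ± 0.23).

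Genes of the cell cycle had the lowest median of all NK lists, at -1.17. Of 25 tested, 23 were lower and 1 was higher, against 29.3% and 27.7% of all genes. Of the 23, 15 were lower by at least 1, as were 8.73% of all genes. *Mki67*, the usual marker of dividing cells, was at 10.9 and 10.9 CPM in lung and 31.7 and 31.9 CPM in spleen. *Top2a*, which encodes the topoisomerase that untangles chromosomes, was at 22.9 and 25.1 CPM in lung and 87.2 and 78.8 CPM in spleen. *Rrm2* (chr12:24708241-24714146), the subunit that limits ribonucleotide reductase, was at 12.2 and 14.5 CPM in lung and 89.4 and 89.2 CPM in spleen. Spleen was higher in every library for the 3 genes, which differed by -1.54 ± 0.14 for *Mki67*, -1.79 ± 0.10 for *Top2a* and -2.78 ± 0.10 for *Rrm2* (adjusted p = 1.4e-23). *Ccnb2* (chr9:70407692-70421547), a cyclin of mitosis, was at 5.47 and 5.96 CPM in lung and 39.2 and 36.3 CPM in spleen (-2.73 ± 0.15). *Birc5*, which encodes survivin, was at 2.98 and 3.89 CPM in lung and 19.5 and 22.2 CPM in spleen (-2.69 ± 0.20). *Kif11*, a spindle motor, was at 5.84 and 5.44 CPM in lung and 27.0 and 26.8 CPM in spleen (-2.23 ± 0.17). *Tpx2*, a spindle assembly factor that was on no list, followed the same direction, at 1.86 and 1.30 CPM in lung and 22.2 and 23.5 CPM in spleen (-3.77 ± 0.23). *Aurkb*, the kinase of the chromosome passenger complex, was at 0.870 and 0.259 CPM in lung and 17.7 and 15.4 CPM in spleen (-4.56 ± 0.32). *Bub1*, a spindle checkpoint kinase, had no read in lung and 12.2 and 12.5 CPM in spleen, at least 49.3-fold lower. *Ube2c*, which helps degrade mitotic cyclins, had no read in lung either and 10.7 and 11.7 CPM in spleen, at least 45.2-fold lower.

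Only 5 genes had no read in both lung libraries and at least 10 CPM in both spleen libraries. They were *Nusap1*, *Bub1* and *Ube2c* and the B-lineage genes *Igha* and *Ly6d*, and this group was chosen after its values were seen. A total of 14 genes had the reverse pattern. In lung of the deletion genotype the 3 cell-cycle genes were present, with *Nusap1* at 12.3 and 12.7 CPM, *Bub1* at 4.91 and 2.72 CPM and *Ube2c* at 4.30 and 6.26 CPM.

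The promoters of the cell-cycle list were searched on both strands for CCAAT, which NF-Y binds, and for TTTGAA, the core of the cell cycle homology element of G2 and mitosis genes. Of the 21 list members with a promoter in RefSeq, 18 held CCAAT within the 250 bases before the start (85.7%) and 8 held TTTGAA (38.1%). All 8 held both motifs, and the share with both was 38.1% of the list, 4.27% of the 8670 promoters of genes tested and 5.73% of all 27025 promoters of that length. By itself CCAAT was in 36.8% and TTTGAA in 10.9% of the promoters of genes tested, and in 34.5% and 16.3% of all promoters. The promoters of *Ccnb2* (chr9:70421555-70421804, minus strand) and *Top2a* (chr11:99024190-99024439, minus strand) are shown as list members with several matches that were lower in lung. They are from RefSeq, GRCm38.p6, and run from 5′ to 3′ on the strand of the gene, with CCAAT or its complement ATTGG and TTTGAA or its complement TTCAAA in capitals. *Ccnb2* holds 3 and 1 matches and *Top2a* 6 and 2. This is a description, not a site or a cause.
Ccnb2: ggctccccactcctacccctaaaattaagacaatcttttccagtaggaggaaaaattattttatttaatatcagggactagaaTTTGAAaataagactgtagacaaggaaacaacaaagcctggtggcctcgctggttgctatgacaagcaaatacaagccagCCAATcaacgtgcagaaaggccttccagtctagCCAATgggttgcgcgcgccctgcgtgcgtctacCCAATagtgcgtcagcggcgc
Top2a: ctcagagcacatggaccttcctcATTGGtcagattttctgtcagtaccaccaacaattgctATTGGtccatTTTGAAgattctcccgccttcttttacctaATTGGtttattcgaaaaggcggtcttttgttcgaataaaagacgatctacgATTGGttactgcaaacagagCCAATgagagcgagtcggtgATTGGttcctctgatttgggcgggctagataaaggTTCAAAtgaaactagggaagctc

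Genes of energy metabolism were followed in separate lists for glycolysis and hypoxia and for the mitochondrial genome. Of 25 glycolysis and hypoxia genes, 6 were higher and 11 lower in lung, against 27.7% and 29.3% of all genes. Their median of -0.12 turned to 0.03 with a correction for GC content, and was -0.23 with library totals and -0.08 without lung *Wt* replicate 1. *Hif1a*, the oxygen-regulated factor, was at 36.7 and 34.7 CPM in lung and 62.9 and 69.8 CPM in spleen (-0.90 ± 0.09). *Pkm*, which encodes pyruvate kinase, was at 188 and 183 CPM in lung and 315 and 301 CPM in spleen (-0.72 ± 0.05). *Pdk1*, which encodes a kinase that keeps pyruvate out of mitochondria, was at 9.82 and 7.77 CPM in lung and 15.7 and 20.1 CPM in spleen (-1.03 ± 0.19). The organs did not overlap in these genes. Transcripts of the mitochondrial genome were higher in lung for all 8 tested of 13 listed, with a median of 0.70, or 0.39 with the GC correction. *mt-Cytb*, which encodes cytochrome b, was at 8233 and 7701 CPM in lung and 3913 and 3926 CPM in spleen (1.02 ± 0.04). *mt-Nd1*, a subunit of complex I, was at 1440.2 and 1333 CPM in lung and 729 and 728 CPM in spleen (0.93 ± 0.04). *mt-Co1*, a subunit of complex IV, was at 1798 and 1696 CPM in lung and 1136 and 1129 CPM in spleen (0.63 ± 0.04 [0.41 with the GC correction]). In each the lung libraries were both higher.

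The lists of this paragraph stand beside the shares of all genes, 27.7% higher and 29.3% lower. Genes of cholesterol and fatty acid synthesis were 3 higher and 3 lower of 22 tested. Their median of 0.01 turned to -0.09 when libraries were scaled by their totals and to -0.02 without lung *Wt* replicate 2. It was 0.07 without lung *Wt* replicate 1, 0.05 without spleen *Wt* replicate 2, 0.03 without spleen *Wt* replicate 1 and 0.04 with the GC correction. *Abcg1*, which exports cholesterol, was at 778 and 793 CPM in lung and 529 and 539 CPM in spleen (0.55 ± 0.04). *Msmo1*, an enzyme of sterol synthesis, was at 42.0 and 37.0 CPM in lung and 56.7 and 59.5 CPM in spleen (-0.54 ± 0.09). Nutrient transporters and *Myc*, with 3 higher and 4 lower of 11 tested, lay near the shares of all genes. Their median of -0.08 turned to 0.11 with the GC correction, and was -0.19 with library totals and -0.05 without lung *Wt* replicate 1. *Slc1a5*, a glutamine transporter gene, was at 76.2 and 74.1 CPM in lung and 139 and 138 CPM in spleen (-0.88 ± 0.07). *Slc7a6*, an amino acid exchanger, was at 32.7 and 26.4 CPM in lung and 15.0 and 16.4 CPM in spleen (0.94 ± 0.13). GIMAP genes, which encode GTPases of lymphocyte survival, were 3 higher and 3 lower of 8, with a median of 0.00 that turned to -0.10 with scaling by totals and was 0.03 with the GC correction. With single libraries left out it went from -0.03 without spleen *Wt* replicate 2 to 0.04 without lung *Wt* replicate 1. *Gimap3* was at 879.8 and 903 CPM in lung and 1184 and 1213 CPM in spleen (-0.43 ± 0.04). *Gimap9* was at 901 and 876 CPM in lung and 702 and 681 CPM in spleen (0.37 ± 0.04).

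Transcripts of lung epithelium were found in both lung libraries. *Sftpc* (chr14:70520949-70524081), which encodes surfactant protein C of alveolar type II cells, was at 152 and 156 CPM in lung and 0 in both spleen libraries, at least 642-fold higher. *Scgb1a1*, the secretoglobin of club cells, was at 87.3 and 83.4 CPM in lung and 0 in spleen, at least 360.2-fold higher. *Sftpa1*, another surfactant gene, was at 13.2 and 12.2 CPM in lung and 0 in spleen, at least 53.8-fold higher. These 3 stood out, and the other defining markers were low or absent: *Aqp5*, *Epcam*, *Cdh1* and *Nkx2-1* had no read in lung, and *Sftpd* was at 0.497 and 0.518 CPM. Of 38 listed genes 15 were tested, and 12 of these were higher and 1 lower in lung, against 27.7% and 29.3% of all genes. A total of 27 of the 38 had no read in spleen, 14 of them with more than 3 reads in lung, and none of the list is on an NK list. Genes without a read in spleen could pass the count filter only through their reads in other libraries. The count of higher members follows largely from that filter and only describes the list. Most of the spleen sum was *Napsa*, which encodes an aspartic protease and was as high in spleen (83.2 and 79.6 CPM) as in lung (82.6 and 71.2 CPM). Per kilobase of transcript, *Scgb1a1* was the highest of the list in lung, at 179 RPKM.

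Lung endothelium gave the larger number of genes. Of 44 listed, 36 were tested, and 31 were higher and 2 lower in lung, against 27.7% and 29.3% of all genes. A total of 34 listed genes had no read in spleen, 27 of them with more than 3 reads in lung. Here too the count of higher members follows largely from the filter and only describes the list. *Cdh5*, which encodes VE-cadherin, was at 9.45 and 8.55 CPM in lung and 0 in spleen, at least 38.3-fold higher. *Cav1*, which encodes the coat protein of caveolae, was at 17.8 and 17.9 CPM in lung and 0 in spleen, at least 74.6-fold higher. *Tmem100*, a membrane protein gene of arterial and capillary endothelium, was at 19.1 and 21.8 CPM in lung and 0 in spleen, at least 83.7-fold higher. All defining endothelial markers except *Egfl7* were at 0 in spleen, and in lung *Sox17* and *Sox18* were at 0. *Egfl7* was at 4.85 and 5.70 CPM in lung and 0.999 and 0.935 CPM in spleen (2.41 ± 0.38). The most abundant gene of the list was *Icam2*, at 86.9 and 89.6 CPM in lung and 119 and 104 CPM in spleen, an adhesion gene that lymphocytes express as well. Only *Eng* of this list is also on an NK list.

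Lung stroma genes summed to 93.6 and 82.1 CPM in lung and 8.99 and 7.36 CPM in spleen. Of 32 listed, 14 were tested and 13 of these were higher in lung, with *Sparc*, a collagen-binding protein gene, the most abundant at 23.1 and 18.4 CPM in lung and 0 in spleen. The count of higher members again follows largely from the filter, since 28 listed genes had no read in spleen. Among the defining markers of stroma, *Lum*, *Pdgfra* and *Pdgfrb* were at 0 in all 4 libraries and *Col3a1* was at 4.48 and 3.89 CPM in lung and 0 in spleen. No stroma gene is on an NK list. Alveolar macrophage genes summed to 21.5 and 22.02 CPM in lung and 8.74 and 8.06 CPM in spleen, and 3 of 4 tested were higher in lung. The most abundant was *Car4*, which is also an endothelial gene, at 8.33 and 8.29 CPM in lung, while *Marco*, *Siglecf* and *Ear1* were at 0 there. Macrophage and monocyte genes summed to 1382 and 1336 CPM in lung and 1402 and 1483 CPM in spleen, mostly from *Ccr2* and *Ly6c2*, which are also on NK lists. Of 14 tested, 9 were higher and 2 lower, against 27.7% and 29.3% of all genes. *Lyz2*, the lysozyme gene of myeloid cells, was at 12.2 and 15.8 CPM in lung and 1.998 and 3.39 CPM in spleen (2.19 ± 0.25), and *Adgre1*, *C1qa*, *C1qc* and *Cd5l* were at 0 in all 4 libraries. Neutrophil, basophil and mast cell genes summed to 10.4 and 7.51 CPM in lung and 3.997 and 3.04 CPM in spleen, with 1 of 3 tested higher in lung. *S100a8* and *S100a9* were at 0 in all 4 libraries, and *Mmp9*, the most abundant in lung, was at 2.36 and 1.81 CPM there.

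**Figure D3:**
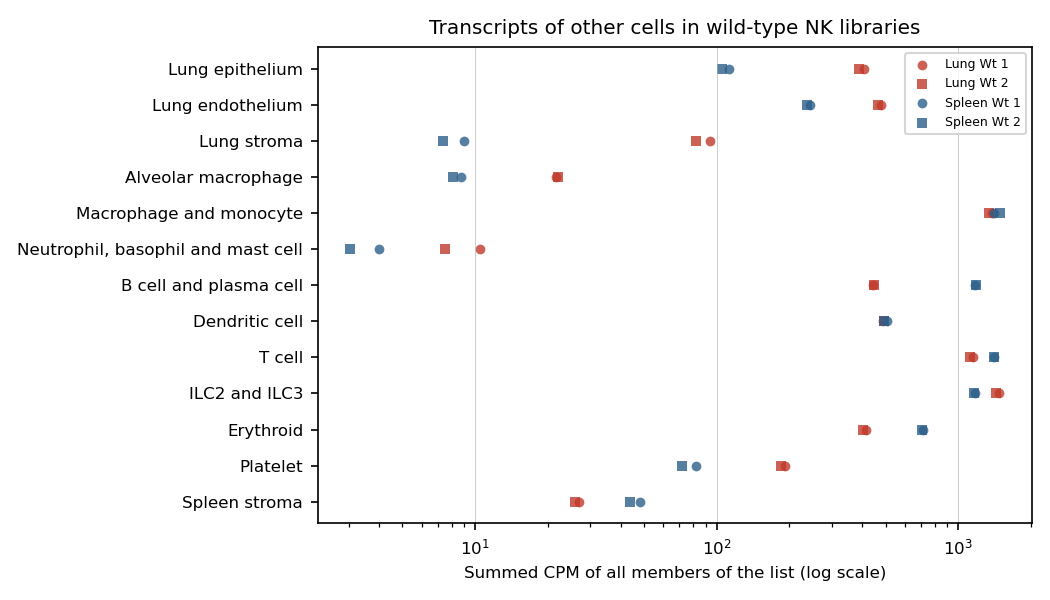
Summed level (CPM, log scale) in each *Wt* library of the genes on each list of other cell types, with lung in red and spleen in blue. Sums for lung epithelium, endothelium and stroma are higher in both lung libraries and sums for B cells are higher in both spleen libraries.

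B-cell and plasma cell transcripts ran opposite to those of lung tissue. They summed to 444 and 448 CPM in lung and 1169.5 and 1183 CPM in spleen. Of 25 tested, 22 were lower in lung and 0 higher, against 29.3% and 27.7% of all genes. *Ighm*, the most abundant, which encodes the IgM heavy chain, was at 289 and 303 CPM in lung and 478 and 487 CPM in spleen (-0.71 ± 0.04). *Cd74*, the invariant chain of MHC class II, which was picked after its values were seen, was at 36.2 and 33.4 CPM in lung and 289 and 297 CPM in spleen (-3.06 ± 0.07). *Igkc*, the κ light chain, was at 2.36 and 2.33 CPM in lung and 62.2 and 61.7 CPM in spleen (-4.71 ± 0.16). The defining markers *Ms4a1* and *Pax5* had no read in lung, and in spleen *Ms4a1* was at 11.7 and 9.11 CPM. No member is on an NK list. Dendritic cell genes summed to 489 and 491 CPM in lung and 508 and 492 CPM in spleen, mostly from *Cst3* and *Itgax*, and 3 were higher and 7 lower of 13 tested. *Flt3* and *Siglech* were at 0 in all 4 libraries.

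T-cell genes summed to 1151 and 1118 CPM in lung and 1411 and 1401 CPM in spleen. Of 18 tested, 10 were lower and 0 higher, against 29.3% and 27.7% of all genes. The constant regions *Trdc* and *Trbc1*, whose transcripts are also known from NK cells, made up much of these sums. *Trdc* was at 313 and 301 CPM in lung and 338 and 354 CPM in spleen (-0.18 ± 0.05). *Trbc1* overlapped, at 268 and 256 CPM in lung and 270.3 and 259.6 CPM in spleen. *Cd3e*, *Cd3d* and *Cd3g* were lower in lung: *Cd3e* was at 7.71 and 6.99 CPM there and 32.0 and 32.5 CPM in spleen (-2.11 ± 0.16). *Cd4* was at 0 in lung and *Cd8b1* at 0 in spleen, and 3 members of the list are also on NK lists. ILC2 and ILC3 genes summed to 1476 and 1433 CPM in lung and 1177 and 1167 CPM in spleen, mostly from *Klrg1*, and 3 were higher and 1 lower of 7 tested. Here 5 members are also on NK lists, and *Il5*, *Il13*, *Il17a* and *Il22* were at 0 in all 4 libraries.

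Erythroid genes summed to 414 and 404 CPM in lung and 711 and 708 CPM in spleen, mostly from the carbonic anhydrase *Car2*. Of 9 tested, 5 were higher and 2 lower, against 27.7% and 29.3% of all genes. *Hbb-bs*, a β-globin gene, was at 13.2 and 16.6 CPM in lung and 0.4996 and 0.584 CPM in spleen (4.65 ± 0.33), while *Slc4a1* was at 0 in all 4 libraries. Platelet genes summed to 192 and 184 CPM in lung and 81.9 and 71.7 CPM in spleen, with *Rgs18* the most abundant in lung and 5 higher and 1 lower of 9 tested. *Ppbp*, a platelet chemokine gene, was at 21.1 and 20.2 CPM in lung and 0.250 and 0.117 CPM in spleen, a ratio of 131 (95% interval 35.8 to 1086). *Pf4*, platelet factor 4, was at 8.58 and 8.29 CPM in lung and 0.4996 and 0.701 CPM in spleen (3.70 ± 0.37), while *Gp9* and *Gp6* were at 0 in all 4 libraries. On the platelet list 2 members and on the erythroid list 1 are also on NK lists. Spleen stroma genes summed to 26.9 and 25.9 CPM in lung and 47.96 and 43.8 CPM in spleen, mostly from *Mfge8*, with 2 lower of 4 tested, and the defining markers *Ccl21a*, *Ccl19*, *Cxcl13* and *Madcam1* were at 0 in all 4 libraries. The part of these transcripts in the NK results was not tested.

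The organ difference of *Wt* cells was then set beside that of the deletion genotype. Whether the libraries of the 2 genotypes were prepared together is not given in the labels. The 2 differences themselves differed for 7753 genes (61.6%) at an adjusted p below 0.05, or for 2017 with the coefficient of variation set to 0.2. In the deletion genotype itself 8259 of the 12595 genes were called. Over 5093 genes with known GC content and a mean log2 CPM of at least 5, the 2 organ differences had a correlation of -0.0689. It was 0.00243 with the GC correction. Of the 7185 genes called in *Wt*, 2230 were also called in the deletion genotype in the same direction, 2763 in the opposite direction, and 2192 were not called there. Among the 906 genes higher in lung by at least 1 the numbers were 475 in the same direction, 117 opposite and 314 not called, and among the 1100 lower genes they were 380, 344 and 376. Some genes had the same direction in both: the log2 difference of *Ccl4* was 2.24 in *Wt* and 2.18 in the deletion genotype (adjusted p of the difference 0.48). That of *Rgs2* was 1.47 and 1.497 (adjusted p 0.79), and that of *Gzmb* was 0.97 and 0.87 (adjusted p 0.064). For *Cd27* it was -1.01 and -0.97 (adjusted p 0.74). The chemokine gene *Xcl1*, at 0.22 in *Wt*, was at -0.43 in the deletion genotype (adjusted p 2.8e-06), and its call in *Wt* was lost with DESeq2, with the coefficient of variation set to 0.2, with library totals, without lung *Wt* replicate 1 and without spleen *Wt* replicate 2. Other genes changed sign, among them *Klf2* (-0.99 in *Wt* and 1.58 in the deletion genotype), *Junb* (-0.62 and 3.19), *Socs1* (-2.31 and 1.70) and *Gzma* (0.68 and -0.29), each with an adjusted p of the difference at or below 2.0e-18. The median of the mitochondrially encoded genes was 0.70 in *Wt* and -0.39 in the deletion genotype, and that of the egress genes was -0.25 and 0.46. For immediate early genes it was 0.65 and 2.13, for early maturation -0.998 and -0.64, and for proliferation -1.17 and -0.70.

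The organ difference of *Wt* cells also followed the GC content of the genes. Over 5093 genes with known GC content and a mean log2 CPM of at least 5, its correlation with GC content was -0.325, and in the deletion genotype it was 0.234. In 5 equal groups of genes from low to high GC content, the median log2 difference in *Wt* was 0.19, 0.10, 0.01, -0.04 and -0.16. The corresponding medians in the deletion genotype were -0.16, -0.12, -0.03, 0.01 and 0.13. With the trend of each library removed the correlation in *Wt* was 0.0122, the median of the proliferation list was -1.47, that of early maturation -0.79 and that of immediate early genes 0.86. The part of GC content in the single differences was not tested beyond this correction.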

How the data were processed

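RNA-seq read counts of sorted NK cells were used. The authors deposited raw read counts per gene symbol, and the processing notes of the submitters name HISAT2 2.1.0 and HTSeq 0.11.1, with reads of 50 bp aligned to mm10. The strand setting of the counting is not given in the sources used here. Reads outside genes made up 54.9% and 55.0% of the uniquely aligned reads in the lung *Wt* libraries and 52.7% and 52.7% in those of spleen. Of 48321 symbols, 46394 were matched to GENCODE M21 by name, 576 through an older symbol or synonym, and 1351 were not matched. The tools were edgeR 4.0.16 and limma 3.58.1 in R 4.3.3, and DESeq2 1.42.0 as an alternative. All 8 libraries entered 1 fit, in which the 4 groups had a mean each, with TMM scaling (factors 0.954 and 0.969 in lung *Wt*, 1.03 and 1.03 in spleen *Wt*), the filterByExpr filter, and the quasi-likelihood test of the difference between lung and spleen within *Wt*. The difference between genotypes in the organ difference was tested in the same fit. The deletion libraries held 4783978 and 7196662 reads in lung and 3132963 and 26482366 in spleen. Genes were called at an adjusted p below 0.05. A floor of 3 reads over both libraries of an organ corresponds to 0.252 CPM in lung and 0.239 CPM in spleen, where floors and intervals cover counting error only. Named genes are the 12 largest in each direction by the rule given in the report, up to 6 members of each list with the largest differences at an adjusted p below 0.05 and at least 5 CPM in the higher organ, the defining members of each list, and *Ccl5*. The rule gave 321 genes, and those described are a selection of them by role. Outside the rule, *Cd74*, *Eng*, *Icam2*, *Igha*, *Itgax*, *Itgb2*, *Mmp9*, *Napsa* and *Tnf* were chosen after their values were seen. For 99.3% of the genes tested the GC content was known, and its trend in each library was removed by a spline with 5 degrees of freedom. The libraries and lists were chosen with earlier results of these data known. Alternatives for the model, the test, the spread, scaling, the filter, GC content, pairing by replicate number and single libraries were run, and counts without genes of other cells and over genes at 5 CPM or more in both organs were added after seeing the data. Raw reads were not used here. Some list members are not reported here.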

Additional observations from a re-analysis of the deposited data

Results flagged for a closer look

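In each of these results the organ difference of *Wt* cells differed from that of the deletion genotype by the edgeR test of the difference itself, at an adjusted p below 0.05. This held for 7753 genes, or 2017 with the biological coefficient of variation set to 0.2. Values are the log2 organ difference in *Wt* minus that in the deletion genotype. Among the largest genes on the lung side it was -3.15 for *Dusp1*, -1.91 for *Fos*, 2.03 for *Clec2d*, -0.24 for *Rgs1*, -1.40 for *Tnfaip3*, -0.85 for *Nr4a2*, -4.12 for *Nr4a1* and 0.69 for *Ccl3*. On the spleen side it was -2.90 for *Tpx2*, -1.13 for *Slamf6*, -1.92 for *Rrm2*, -0.91 for *Ccnb2*, -1.12 for *Birc5*, -3.18 for *H2afx*, -4.01 for *Socs1*, -1.71 for *Kif11*, -2.31 for *Rom1*, -2.06 for *Adgrg5* and -1.52 for *Hvcn1*. Of the 19 NK identity genes 18 passed this test, against 61.6% of all genes. For those called in both genotypes with opposite signs the value was 0.43 for *Ncr1*, 0.52 for *Klrb1c*, -2.31 for *Tbx21*, -1.82 for *Il2rb*, 0.72 for *Fcer1g*, 1.002 for *Nkg7*, 0.80 for *Klre1* and 1.10 for *Sh2d1b1*. *Cd36* had no read in spleen of the deletion genotype and *Nusap1* had none in lung of *Wt*, so their edgeR adjusted p-values are given instead, 5.6e-10 for *Cd36* and 5.5e-14 for *Nusap1*.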

How the results depend on the processing

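Genes followed across the settings numbered 144, or 130 under the filter of at least 10 counts in every *Wt* library, and none of them changed its direction in a setting that tested it. All 144 were called in *Wt*, and genes that did not pass the test, such as *Eomes* and *Klrk1*, whose signs turned with the GC offset, were not followed. The GC offset plus the replicate block moved the same list medians by over 1.5 times as the GC offset alone. The number of genes differing was 7135 with the replicate block, of which 3475 were higher in lung, and 7130 with the GC offset. With single libraries left out, where the lone library is assumed to vary like the other groups, it was 5427 to 6977, with 2702 to 3581 lower, 2725 to 3445 higher, and with a difference of at least 1 as well 750 to 1080 higher and 958 to 1262 lower. With the biological coefficient of variation set to 0.2 the numbers of genes were 2011 in all, 883 higher, 1128 lower and 2017 differing between genotypes. DESeq2 called 4790 genes against 7185 in the main fit, with 2402 higher and 2388 lower. With a difference of at least 1 as well, 1401 genes were higher without a filter on low counts, and 277 were higher and 442 lower with at least 10 counts in every *Wt* library, where fewer genes are tested. Over genes at 5 CPM or more in both organs, a setting added after seeing the data, 162 were higher and 266 lower. List medians that changed sign by more than the spread between libraries, from a value beyond that spread, were -0.036 for granule proteins with library totals, -0.0061 and -0.025 for NKG2, NKR-P1 and checkpoint receptors, 0.027 and 0.043 for glycolysis and 0.11 and 0.10 for amino acid transporters with the GC offset and with it plus the replicate block, and for the circadian clock 0.016 in *Wt* libraries alone, 0.041 with at least 10 counts, and -0.070 to 0.042 with single libraries left out, where it was positive without lung *Wt* replicate 2 and without spleen *Wt* replicate 2. Other medians that changed sign were -0.079 for NK identity, -0.092 for cholesterol synthesis and -0.10 for GIMAP genes with library totals, 0.15 for tissue residency without spleen *Wt* replicate 2, 0.0017 for chemokine receptors without lung *Wt* replicate 1, -0.017 for cholesterol synthesis without lung *Wt* replicate 2, and for GIMAP genes -0.0011 without a filter, -0.0042 without lung *Wt* replicate 2 and -0.026 without spleen *Wt* replicate 2. Apart from the filters and left-out libraries the cause was not tested. A fit of *Wt* libraries alone gives no difference between genotypes. Deviations of lung and spleen *Wt* libraries with the same number had a correlation of 0.00447 over 5103 genes, or 0.0689 with the GC trend removed, the numbers are shared by label only, and 2 pairs do not make a pairing.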
